A study of Mus musculus with 12 samples.

Results

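The 5 libraries described here are the resting wild types of the study: naive CD4+ T cells at 0 h, taken by their labels from the Mettl3 set (wild types 1, 2 and 3) and from the Nudt21 set (wild types 1 and 2). They are 5 of the 12 samples, and every gene of the deposited table was examined in them. The study asked how m6A, a methyl mark on RNA, and the choice of polyadenylation site act in naive T cells. It compared each knockout (genotypes Mettl3-/- and Nudt21-/-) with wild types of its own set, and its 7 other samples are 3 Mettl3-set wild types cultured with antibodies to CD3 and CD28 for 48 h, 2 Mettl3-/- samples at 0 h and 2 Nudt21-/- samples at 0 h.

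All 5 resting wild types carry the same labels: strain C57BL/6, genotype wild type, cells sorted from spleen and lymph nodes, and no treatment. They differ in the labels only by set and replicate number. Age, sex, the driver of the deletion in the knockouts, collection day and library batch are not given in the labels, so the set and the day or batch of preparation cannot be told apart. Whether each replicate is an animal of its own is not stated, so p-values reflect sample-to-sample spread that may be technical.

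A naive CD4 T cell has left the thymus and has not yet met its antigen. It recirculates through blood, spleen and lymph nodes, held in a quiescent state by transcription factors such as Klf2, Foxo1, Tcf7 and Lef1 and fed by survival signals from interleukin 7 and weak contact of its antigen receptor. Immediate-early genes such as Fos, Fosb, Egr1 and Nr4a1 are transcribed within minutes of a signal, without new protein synthesis, and Socs3 is induced through STAT3 and shuts off cytokine receptors. Such genes are therefore read as a record of recent signals. Fosb encodes a subunit of the AP-1 transcription factor, and Hbb-bs encodes a beta chain of adult haemoglobin, made in erythroid cells.

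The promoters of the signalling genes on which the comparison turns are shown because Fosb, Fos and Socs3 were higher and Nr4a1 was lower in the Nudt21 set. Each sequence is the 250 bases before the RefSeq start site (assembly GRCm38.p6), printed 5′ to 3′ on the strand of the gene, upstream of the first RefSeq exon. GENCODE also lists longer transcripts: the Socs3 window overlaps an exon of one and an intron of another, the Nr4a1 window lies in an intron of one, and the Fosb window meets the first exon at its last bases. All 4 genes matched an entry. The intervals are chr7:19310046-19310295 for Fosb (minus strand), chr12:85473640-85473889 for Fos (plus strand), chr11:117969367-117969616 for Socs3 (minus strand) and chr15:101266596-101266845 for Nr4a1 (plus strand). Capitals mark any match, on either strand, to the AP-1 site TGANTCA, the cAMP response element TGACGTCA, its core TGACG (which overlaps the full element), the STAT site TTCNNNGAA or the CArG box, which serum response factor binds.
Fosb: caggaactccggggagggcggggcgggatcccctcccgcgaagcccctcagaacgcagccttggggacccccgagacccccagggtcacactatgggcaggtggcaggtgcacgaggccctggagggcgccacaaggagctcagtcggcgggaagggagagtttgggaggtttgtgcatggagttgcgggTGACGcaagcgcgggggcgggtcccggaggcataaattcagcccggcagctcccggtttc
Fos: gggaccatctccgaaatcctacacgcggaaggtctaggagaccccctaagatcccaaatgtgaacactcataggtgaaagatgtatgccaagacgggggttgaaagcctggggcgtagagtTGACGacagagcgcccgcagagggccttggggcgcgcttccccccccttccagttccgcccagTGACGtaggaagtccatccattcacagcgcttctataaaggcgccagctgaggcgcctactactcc
Socs3: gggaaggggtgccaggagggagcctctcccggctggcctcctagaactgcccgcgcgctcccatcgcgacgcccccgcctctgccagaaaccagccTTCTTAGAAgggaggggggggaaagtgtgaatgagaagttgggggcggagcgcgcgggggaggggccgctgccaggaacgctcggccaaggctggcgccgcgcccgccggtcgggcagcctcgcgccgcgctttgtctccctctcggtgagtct
Nr4a1: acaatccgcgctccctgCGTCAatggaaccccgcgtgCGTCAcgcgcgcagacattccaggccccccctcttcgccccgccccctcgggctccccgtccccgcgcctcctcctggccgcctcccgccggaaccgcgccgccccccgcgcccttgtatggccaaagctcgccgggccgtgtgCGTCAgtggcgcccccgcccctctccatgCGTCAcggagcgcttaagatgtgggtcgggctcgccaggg
The Fosb window held 1 core TGACG, at bases -60 to -56 counted back from -1 at the last base before the start. The Fos window held 2, at -129 to -125 and at -66 to -62, and the Nr4a1 window held 4, all on the opposite strand and so printed as CGTCA. The Socs3 window held 1 match to the STAT site, at -154 to -146. Of all 32851 RefSeq promoter windows of the same length, 17.8% held the core TGACG, 7.02% the STAT site, 6.75% the AP-1 site, 1.55% the full cAMP response element and 1.47% the CArG box. A match of letters is a description and not a site of binding.

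The values are FPKM (fragments per kilobase of transcript, scaled to library size), and the table gives no counts or depths. In genes with a single annotated transcript, FPKM multiplied by gene length had a most common value in each library. In the 5 resting wild types 44 to 84 genes shared it, among 1398 to 1872 values between 5 and 100, and 10 to 13 genes shared the next most common value. If that value stands for 1 fragment, the Mettl3-set wild types held 42.2, 27.7 and 42.3 M fragments (M for mega) and the Nudt21-set wild types 58.4 and 63.0 M. Whole reads were not recovered from it, and no count test was run. Between 10716 and 10817 genes reached 1 FPKM in each of the 5 libraries. Pearson's r of log2(FPKM + 1) across genes, which are not independent replicates, was 0.991 to 0.994 within the Mettl3 set, 0.996 within the Nudt21 set and 0.980 to 0.986 across sets. The targeted genes matched the labels of the knockouts: Mettl3 was at 5.35 and 6.45 FPKM in Mettl3-/- cells against 25.3 to 28.7 in their wild types, and Nudt21 at 7.57 and 6.69 in Nudt21-/- cells against 18.2 and 16.9.

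The cells were CD4 T cells by their defining genes in every library. Cd4 was at 224, 243 and 232 FPKM in Mettl3-set wild types 1, 2 and 3 and at 255 and 247 in Nudt21-set wild types 1 and 2. Ccr7, a chemokine receptor that guides T cells into lymph nodes, was at 184, 215 and 219 against 214 and 217. The 9 naive CD4 markers summed to between 2250 and 2594 FPKM in the Mettl3 set and between 2302 and 2379 in the Nudt21 set. The ranges of the sums overlap, and no library stood apart by its sum. Single markers did not all overlap. Both Nudt21-set libraries were above every Mettl3-set library in Cd4 and below every one in Cd3e, without either gene passing. Of the 9 markers 1, Lef1, was called lower in the Nudt21 set.

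Across all genes, 2337 were higher and 914 lower in the Nudt21-set wild types, by limma on log2(FPKM + 1) with a Benjamini-Hochberg adjusted p under 0.05. That is 26% of the 12511 genes tested, 18.7% higher and 7.31% lower. The differences were mostly small: the median size was 0.35 on the log2 scale among the higher genes and 0.41 among the lower ones, and 92.9% and 81.2% of them were under 1.5-fold. Only 36 higher and 17 lower genes differed by 2-fold or more. The libraries of the sets did not overlap in any of the 3251 called genes, beside 58.4% of all genes tested in which they did not overlap.

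The balance of higher and lower genes depended on how libraries were scaled. On the FPKM values as deposited, 71.9% of the called genes were higher in the Nudt21 set. With libraries scaled by the median ratio it was 47.7% (1276 higher, 1401 lower), and after quantile scaling 45.7% (1030 higher, 1224 lower). The median log2 difference of all genes was 0.08 as deposited, 0.01 after median-ratio scaling and -0.01 after quantile scaling. Leaving out Nudt21-set wild type 1 left 529 higher and 114 lower genes, and leaving out wild type 2 left 1118 and 337. The lone library is then assumed to vary like the other groups.

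**Figure D1:**
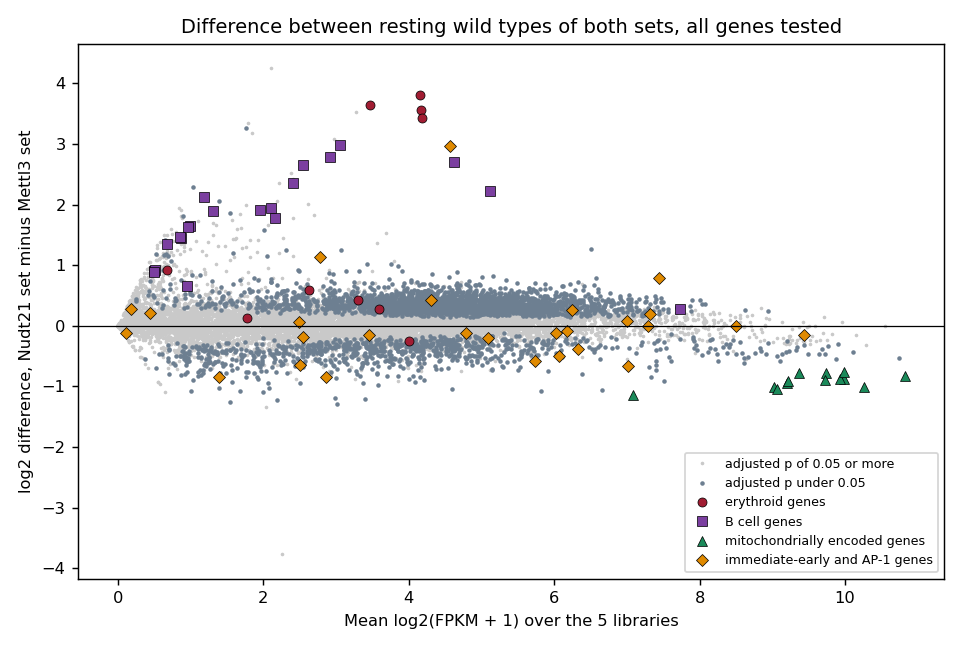
Each point is 1 of the 12511 genes tested, with its mean log2(FPKM + 1) over the 5 resting wild types on the x axis and its log2 difference (Nudt21 set minus Mettl3 set) on the y axis. Darker grey points passed the adjusted p of 0.05. Erythroid genes reach 3.80 and the 13 mitochondrially encoded genes all lie below 0 at the high-level end.

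Among called genes with non-overlapping sets and a mean of 5 FPKM or more in the Nudt21 set, those of largest difference were adult haemoglobin chains, Fosb and genes of B cells. The 4 globins Hbb-bs, Hbb-bt, Hba-a1 and Hba-a2 were higher by 3.80, 3.64, 3.56 and 3.43 on the log2 scale. Fosb followed at 2.96. Then came Cd74 (the invariant chain of MHC class II) at 2.70, Cd79a and Cd79b (the signalling chains of the B cell receptor) at 2.36 and 1.91, Ly6d at 2.06 and H2-DMb2 at 1.86. Plac8, Socs3, Unc93b1, Gadd45g (a stress-response gene induced by cytokines) and Arhgef10 completed the 15, with differences of 1.59, 1.27, 1.26, 1.2 and 1.16. All had limma adjusted p-values under 0.05, from 0.000995 for Gadd45g to 0.0491 for Hba-a2.

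By the same rule, the genes lower in the Nudt21 set were led by Rgs1, which encodes a GTPase-activating protein that dampens chemokine receptor signalling. It was at 12.3, 11.2 and 8.55 FPKM in the Mettl3 set and at 4.04 and 3.46 in the Nudt21 set, a log2 difference of -1.29 ± 0.14 (SE, limma adjusted p = 0.00101). Arhgap5 followed at -1.22, Nphs1 at -1.21, Igip at -1.19 and P2ry10, a lysophospholipid receptor of lymphocytes, at -1.04. The mitochondrial transcripts mt-Nd3, mt-Nd6, mt-Nd4l and mt-Atp6 lay between -1.15 and -1.0. AI504432, Mpp7, mt-Atp8, mt-Nd5, Rps29 and Rb1cc1 (the autophagy initiator FIP200) lay between -0.97 and -0.90.

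Among the 27 immediate-early and AP-1 genes, 3 were higher and 5 lower in the Nudt21 set, and 19 did not pass, beside 18.7% of all genes called higher and 7.31% lower. The list did not move as a block: its median was -0.11, beside 0.08 for all genes. Fosb, Fos and Klf4 were higher, and Nr4a1, Nr4a2, Nr4a3, Klf6 and Csrnp1 were lower.

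Fosb (ENSMUSG00000003545) was at 14.6, 9.71 and 5.73 FPKM in Mettl3-set wild types 1, 2 and 3 and at 66.7 and 95.7 in the Nudt21 set. Every Nudt21-set value was above every Mettl3-set value, and the lowest Nudt21-set value exceeded the highest Mettl3-set value severalfold. The log2 difference was 2.96 ± 0.50 (SE, limma adjusted p = 0.00377), and it passed in all 27 alternative settings (2.64 to 3.25). Fos, its partner in the same family, was at 156, 138 and 123 FPKM against 231 and 249, a log2 difference of 0.79 ± 0.09 (SE, limma adjusted p = 0.00128). Klf4, a zinc finger factor that restrains proliferation of naive T cells, was at 5.41, 3.87 and 3.06 against 9.80 and 10.2, a difference of 1.13 ± 0.16 (SE, limma adjusted p = 0.00196).

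The Nr4a genes encode orphan nuclear receptors induced by the antigen receptor, and all 3 were lower in the Nudt21 set. Nr4a2 was at 3.44, 1.98 and 1.76 FPKM against 0.801 and 0.882, a log2 difference of -0.85 ± 0.19 (SE, limma adjusted p = 0.0123). Nr4a1, Nr4a3, Klf6 and Csrnp1 complete the list's called genes and were named after their values were seen. Nr4a1 was at 182, 170 and 120 FPKM against 93.4 and 101, a difference of -0.67 ± 0.15 (SE, limma adjusted p = 0.0109), and Nr4a3 at 6.94, 5.10 and 5.39 against 3.40 and 3.25, a difference of -0.64. Nr4a1 was thus lower in the libraries in which Fosb was higher. Klf6 differed by -0.59 and Csrnp1 by -0.50. Without Nudt21-set wild type 1 there were 0 lower calls, and 1 of the list's genes was called lower without wild type 2, while the 3 higher calls numbered 3 in both cases.

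Other members of the family were held close between the sets. Ier2 was at 154, 155 and 161 FPKM against 155 and 156, and the 95% interval of its log2 difference ran from -0.14 to 0.12. Jun was at 133, 121 and 121 against 125 and 140 (interval -0.12 to 0.29), and Myc at 69.1, 67.1 and 62.4 against 57.4 and 64.7 (interval -0.30 to 0.07). These intervals lie within 0.32 on the log2 scale in both directions, as do those of Jund and Btg2. Egr1 was at 26.4, 27.1 and 29.5 against 25.1 and 25.6, and Junb at 751, 715 and 698 against 661 and 639. Their intervals, -0.52 to 0.29 and -0.52 to 0.22, leave room for larger differences in either direction. Egr1, Jun, Junb, Ier2 and Myc were named after their values were seen.

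**Figure D2:**
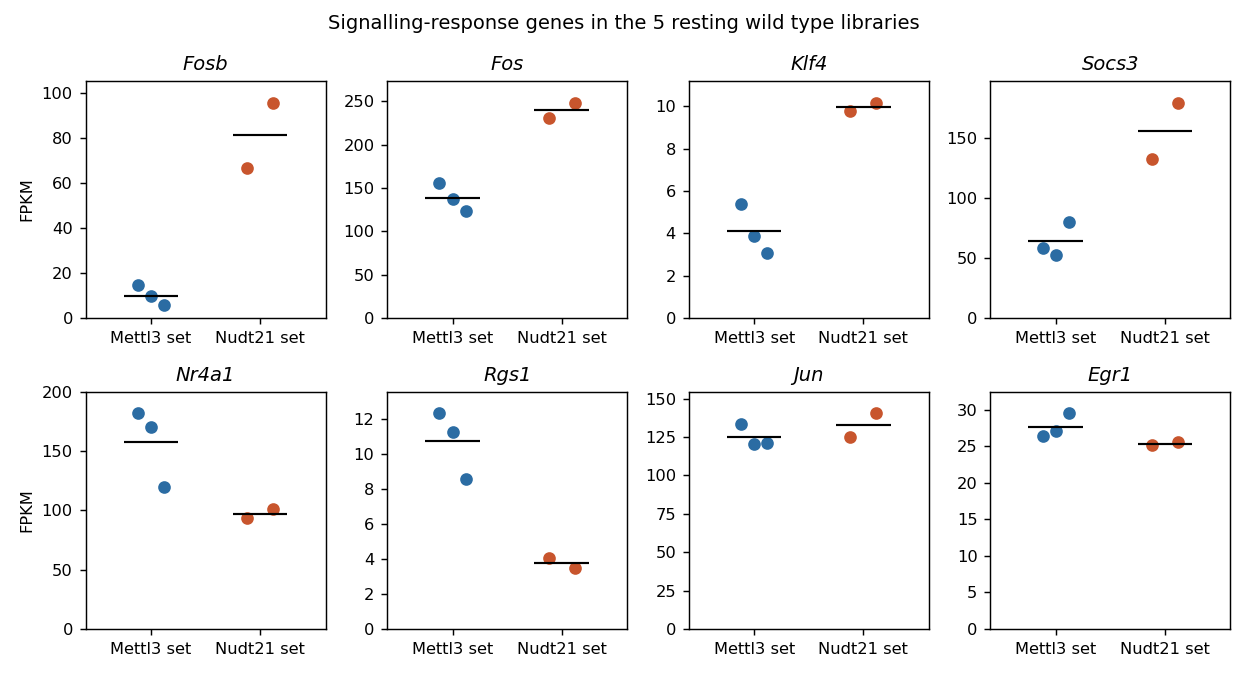
FPKM on the y axis (from 0) of 8 genes in the 3 Mettl3-set (blue) and 2 Nudt21-set (orange) resting wild types; points are libraries and bars are means. The sets do not overlap for Fosb, Fos, Klf4, Socs3, Nr4a1, Rgs1 or Egr1, while Jun overlaps. Egr1 lies between 25.1 and 29.5 in all 5 libraries.

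Of 14 genes for MAPK phosphatases, Sprouty and RGS proteins, which restrain MAP kinase and G protein signalling, 0 were higher and 3 lower (Rgs1, Dusp5 and Rgs2), beside 18.7% of all genes called higher and 7.31% lower. Dusp5, a nuclear phosphatase of ERK, was at 55.8, 41.4 and 32.9 FPKM against 27.3 and 23.5 (log2 difference -0.72, limma adjusted p = 0.0148). Rgs2 was at 46.5, 42.2 and 40.9 against 32.4 and 28.7 (-0.49). Without either Nudt21-set library 1 of these calls was made. Dusp1, named after its values were seen, was at 123, 103 and 85.5 against 103 and 103, inside the range of the Mettl3 set. Dusp6, another ERK phosphatase also named after its values were seen, had the opposite order without passing, at 15.8, 19.9 and 14.0 against 20.4 and 23.7 (0.41, limma adjusted p = 0.0879). Of 14 genes, 7 had an unadjusted p under 0.05, beside 4804 of all 12511 genes.

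Of 19 genes of the SOCS family and of cytokine feedback, 6 were higher, 1 was lower and 12 did not pass, beside 18.7% of all genes called higher and 7.31% lower. Socs3 (ENSMUSG00000053113) encodes an inhibitor of the gp130 family of cytokine receptors. It was at 58.8, 53.0 and 80.4 FPKM in the Mettl3 set and at 132 and 179 in the Nudt21 set, with no overlap, a log2 difference of 1.27 ± 0.20 (SE, limma adjusted p = 0.00277) that passed in all 27 alternative settings. Stat3, whose protein drives Socs3, was at 74.5, 61.6 and 77.8 against 96.5 and 93.8 (0.42, limma adjusted p = 0.0421). Bcl3, an atypical IkappaB protein, was at 23.6, 27.0 and 32.3 against 45.0 and 53.5 (0.82). Il4ra, the interleukin 4 receptor chain, was at 76.6, 76.1 and 82.8 against 111 and 107 (0.47).

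The kinases Pim1 and Pim2, targets of the same receptors, were higher by 0.40 and 0.28, and Socs4 was lower by a log2 difference of -0.42. These 3 were named after their values were seen. The other SOCS genes did not follow Socs3. Socs1 was at 16.9, 14.9 and 19.8 FPKM against 19.2 and 20.2, and Cish at 9.24, 8.35 and 9.11 against 9.25 and 6.95, both overlapping between sets. Socs2 was at 0.513 FPKM or lower in all 5 libraries. The Stat3 call was lost with median-ratio scaling (limma adjusted p = 0.0964), with quantile scaling (0.159) and without Nudt21-set wild type 1 (0.201), and the Socs4 difference shrank to -0.11 after correction for GC content and length.

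Genes of NF-kappaB feedback gave 3 higher and 1 lower of 16, close to the shares of all genes, 18.7% and 7.31%. Tnf was at 8.14, 10.1 and 8.72 FPKM against 13.9 and 12.8 (log2 difference 0.53), Tnip2 at 12.6, 10.7 and 10.7 against 15.8 and 17.5 (0.52), and Nfkbid at 68.4, 63.1 and 50.9 against 44.3 and 41.4 (-0.49). Of 16 heat shock chaperones, Hspa5 alone passed (0.20), and of 12 glucocorticoid-induced genes Sgk1 alone (0.37). Of 16 clock genes 2 were lower, the nuclear receptors Nr1d2, at 9.18, 9.17 and 12.4 FPKM against 5.78 and 5.64 (-0.73, limma adjusted p = 0.0037), and Nr1d1 (-0.28). The other 14 clock genes did not pass.

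Transcripts of cells other than CD4 T cells differed between the sets. In bulk samples, more cells of a type and more RNA per cell cannot be told apart. Hbb-bs (ENSMUSG00000052305) was at 4.83, 3.70 and 7.70 FPKM in the Mettl3 set and at 95.8 and 76.4 in the Nudt21 set, a log2 difference of 3.80 ± 1.12 (SE, limma adjusted p = 0.0334). The groups stood far apart, yet the call was lost in 10 of the alternative settings (limma adjusted p up to 0.173, without Nudt21-set wild type 1), while the difference stayed between 3.6 and 4.33. Of 10 erythroid genes tested, 8 were higher and 0 lower, beside 18.7% of all genes called higher and 7.31% lower. Alas2 (haem synthesis, 0.92) and Fech (0.42) were among the 8. Without Nudt21-set wild type 1 there were 0 erythroid calls, without wild type 2 there was 1, and without Mettl3-set wild type 3 there were 3. The 5 defining erythroid markers summed to 15.3 to 27.3 FPKM in the Mettl3 set and to 252 and 333 FPKM in the Nudt21 set.

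Of 21 B cell genes, 13 were higher and 0 lower, beside 18.7% of all genes called higher, with a median of 1.77 beside 0.08 for all genes. The sets did not overlap in any of the 21, beside 58.4% of all genes. Cd79a was at 1.31, 1.63 and 2.44 FPKM against 15.8 and 10.9 (log2 difference 2.36 ± 0.50, SE, limma adjusted p = 0.00907). Cd74 was at 8.15, 8.54 and 17.0 against 92.4 and 59.9 (2.70). Mettl3-set wild type 3 held the highest level of its set in both. The 4 defining B cell markers summed to 2.71 to 5.29 FPKM in the Mettl3 set and to 34.3 and 22.0 in the Nudt21 set. Without Nudt21-set wild type 1 there were 0 called B cell genes, and without wild type 2 there were 7.

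Myeloid genes showed the same order of levels without passing the test. Of 18 tested, limma called 0, and 2 had an unadjusted p under 0.05, beside 4804 of all 12511 genes. The sets did not overlap in 17, beside 58.4% of all genes. S100a9, a neutrophil protein, was at 0.0457, 0 and 1.24 FPKM against 38.6 and 15.1 (log2 difference 4.25 ± 1.48, SE, limma adjusted p = 0.0608), and S100a8 at 0, 0.351 and 0.896 against 21.0 and 7.70 (limma adjusted p = 0.0972). The spread of the Mettl3-/- libraries enters this test: S100a9 was at 0.0494 in Mettl3-/- sample 1 and at 119 in sample 3. Without Mettl3-/- sample 3 the number called was 13 of 18, and with library weights it was 8. Of 20 CD8, NK and gamma-delta T cell genes limma called 0 and 2 had an unadjusted p under 0.05. Of 11 listed platelet genes 4 were tested, and of these limma called 0 and 0 had an unadjusted p under 0.05. Without Mettl3-/- sample 3 the calls were 5 and 0. Of 14 listed stromal and endothelial genes 4 were tested, and 1 (Sparc) was higher. Over all genes tested, 18.7% were called higher and 7.31% lower. The untested platelet and stromal genes were too low for the filter, so these counts do not cover them. The 3 defining platelet markers summed to 1.35 to 2.11 FPKM in the Mettl3 set and to 1.99 and 2.64 in the Nudt21 set.

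**Figure D3:**
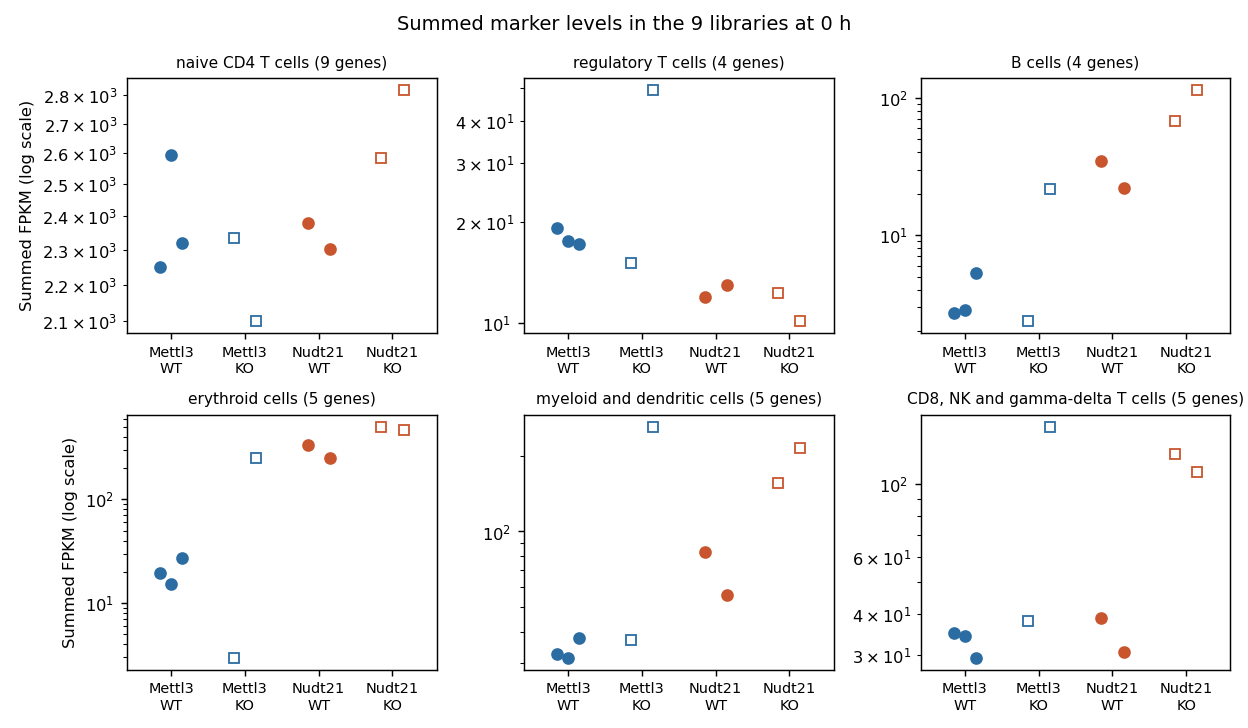
Summed FPKM (log y axis) of the defining markers of 6 cell types in the 9 libraries at 0 h: wild types as filled circles, knockouts as open squares, the Mettl3 set in blue and the Nudt21 set in orange. Erythroid sums are 15.3 to 27.3 in Mettl3-set wild types against 252 and 333 in Nudt21-set wild types, and Mettl3-/- sample 3 lies at 251.

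Those marker levels stand beside the T cell results as measured values, and their part in any other difference was not tested. Regulatory T cell markers (Foxp3, Ikzf2, Il2ra and Ctla4) summed to 17.2 to 19.2 FPKM in the Mettl3 set and to 12 and 13 in the Nudt21 set, the opposite order, and none of the 4 passed. In the wider regulatory T cell list 3 of 14 passed, all higher, close to the 18.7% of all genes called higher. They were Gpr83 (0.74), Izumo1r (folate receptor 4, 0.66) and Tnfrsf18 (0.35). The Tnfrsf18 call was lost after correction for GC content and length (0.20, limma adjusted p = 0.0709). The Gpr83 call was not made when either Nudt21-set library was left out. Foxp3 itself was at 4.72, 3.81 and 5.93 against 4.88 and 5.06.

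All 13 protein genes of the mitochondrial genome were lower in the Nudt21 set, with a median log2 difference of -0.89, beside 7.31% of all genes called lower. They encode core subunits of the respiratory chain and ATP synthase. mt-Nd3 was at 153, 229 and 183 FPKM against 81.7 and 85.2 (-1.15 ± 0.24, SE, limma adjusted p = 0.00928), and mt-Nd6 at 628, 865 and 659 against 343 and 350 (-1.03). Together the 13 made up 3.51% to 4.66% of the summed FPKM in the Mettl3 set and 2.08% and 2.13% in the Nudt21 set, without overlap. Their direction held under both scalings, with medians of -0.97 and -0.52. The count was 7 after correction for GC content and length, and 2 without either Nudt21-set library.

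The nuclear genes of the same respiratory complexes moved the other way. Of 65 tested, 29 were higher and 2 lower, beside 18.7% of all genes called higher. Ndufa12 was at 7.21, 6.73 and 7.48 FPKM against 20.7 and 11.5 (log2 difference 1.02), Cox5b at 51.1, 40.6 and 37.7 against 69.6 and 71.2 (0.71), and Ndufb8 at 24.5, 24.7 and 24.8 against 38.3 and 35 (0.55). Ndufb8 hardly varied within the Mettl3 set. Their median was 0.23, and 0.15 and 0.12 under the scalings, which left 17 and 14 higher calls. There were 6 higher calls without Nudt21-set wild type 1 and 18 without wild type 2. Of the 65 genes, 19 had an interval within 0.32, beside 28.4% of all genes.

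Of 79 cytosolic ribosomal protein genes, 41 were lower and 0 higher, with a median of -0.31, beside 7.31% of all genes called lower. Rps29 was at 223, 253 and 225 FPKM against 123 and 125 (-0.91 ± 0.09, SE, limma adjusted p = 0.000995), Rpl39 at 171, 218 and 185 against 118 and 118 (-0.68), Rps28 at 196, 214 and 191 against 129 and 127 (-0.64) and Rps27 at 416, 544 and 436 against 303 and 299 (-0.62). Mettl3-set wild type 2 was the highest library in all 4. The translation genes Eef1a1 and Pabpc1 were also lower, Eef1a1 at 1757, 2296 and 1940 against 1436 and 1313 and Pabpc1 at 446, 494 and 465 against 333 and 320. After quantile scaling the ribosomal count was 27 lower and 1 higher, and without either Nudt21-set library it was 8 lower. Ribosomal protein genes have many processed copies, and the way reads were shared among copies is not given in the sources used here.

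Among 30 naive T cell genes, 2 were higher, 9 lower and 19 did not pass, beside 18.7% of all genes called higher and 7.31% lower. Klf2, the factor that drives S1pr1, was at 273, 285 and 272 FPKM against 206 and 216 (-0.39 ± 0.08, SE, limma adjusted p = 0.00686). Foxo1, which acts upstream of Klf2 and Il7r, was at 53.0, 60.4 and 58.5 against 43.1 and 43.8 (-0.39), and Itga6 at 61.0, 59.8 and 78.7 against 51.3 and 49.9 (-0.38). Treml2 was higher, at 60.9, 51.8 and 63.3 against 84.4 and 83.9 (0.52). Without Nudt21-set wild type 1 there were 0 lower calls, without wild type 2 there were 3, and after correction for GC content and length there were 3.

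The homing and survival receptors did not pass the test. Ccr7 had an interval of -0.13 to 0.27, within 0.32, as was that of the factor Tcf7 (-0.29 to 0.18). S1pr1, the egress receptor, was at 126, 133 and 155 FPKM against 124 and 138, and Il7r at 192, 168 and 132 against 166 and 159. Both overlapped between the sets. Il7r varied more within the Mettl3 set than between the sets.

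Of 24 T cell receptor and lineage genes, 4 were called, beside 26% of all genes. Cd2 was higher (0.23) and 3 were lower: Themis, which tunes receptor signalling in the thymus, at 35.9, 36.4 and 33.6 FPKM against 22.9 and 23.1 (-0.60), Gata3 (-0.24) and Bcl11b (-0.24). Another 10 had an interval within 0.32, beside 28.4% of all genes, among them Cd4, Cd3d, Cd3g, Cd247, Lck, Zap70 and Lcp2. The Themis difference was -0.21 and no longer passed after correction for GC content and length (limma adjusted p = 0.103). Of 34 activation and memory genes, 2 were higher and 1 lower, with Batf at 21.6, 20.7 and 24.9 against 37.8 and 34.4 (0.67) and Irf4, an antigen receptor target, at 3.77, 3.35 and 3.5 against 2.13 and 2.25 (-0.51). Of 55 interferon-stimulated genes 5 were higher and 0 lower, beside 18.7% of all genes called higher. The 5 were Isg20 (0.72), Ifi35 (0.63), Bst2 (0.54), Psmb9 (0.46) and Psmb8 (0.44). Without Nudt21-set wild types 1 and 2 in turn there were 3 and 2, and without Mettl3-/- sample 3 there were 10.

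Mettl3, the catalytic subunit of the m6A writer, was at 26.7, 28.7 and 25.3 FPKM in its own set and at 34.4 and 33.9 in the Nudt21 set (0.33 ± 0.08, SE, limma adjusted p = 0.0166). The reader Ythdf3 was at 25.8, 24.7 and 26.2 against 14.2 and 16.3 (-0.71, limma adjusted p = 0.00182). Of 19 m6A genes, 3 were higher and 2 lower, together near the 26% of all genes called, and 8 had intervals within 0.32, including Wtap (-0.12 to 0.12), Fto (-0.09 to 0.15), Mettl14 (-0.05 to 0.26) and Ythdf2 (-0.19 to 0.22). The Mettl3 call was lost after quantile scaling (0.21, limma adjusted p = 0.0704), without Nudt21-set wild type 1 (0.117) and without wild type 2 (0.078).

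Nudt21, a subunit of cleavage factor I that guides poly(A) site choice, was at 17.0, 18.1 and 19.2 FPKM against 18.2 and 16.9, with an interval of -0.19 to 0.11. Its partner Cpsf6 was lower, at 30.7, 24.7 and 29.1 against 20.9 and 21.1 (-0.40, limma adjusted p = 0.00804), Pabpc1 by a log2 difference of -0.52, and Cpsf4 was higher by 0.48. Of 25 cleavage and polyadenylation genes 8 were higher and 3 lower, beside 18.7% of all genes called higher and 7.31% lower. The interval lay within 0.32 in 9, beside 28.4% of all genes. With median-ratio scaling the counts were 3 higher and 5 lower, so no direction is given for the group. There was 1 call in each direction without Nudt21-set wild type 1.

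Of 52 mTOR pathway genes, 10 were higher, close to the 18.7% of all genes, and 6 lower, beside 7.31% of all genes. The interval lay within 0.32 in 20, beside 28.4% of all genes. The kinase Mtor was at 10.5, 10.1 and 10.5 FPKM against 11 and 11.3 and its partner Rptor at 10.5, 10.9 and 10.7 against 10.4 and 10.5, with intervals of -0.06 to 0.26 and -0.22 to 0.15. Lamtor2, a subunit of the lysosomal Ragulator scaffold, was at 49.6, 43.2 and 46.9 against 72.1 and 69.8 (0.60, limma adjusted p = 0.0019). Sesn3, an inhibitor of the pathway, was at 41.6, 36.0 and 45.5 against 27.6 and 29.4 (-0.50). Fnip1 differed by -0.48. After correction for GC content and length, and also without Nudt21-set wild type 1, 1 lower call was made.

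The remaining lists gave smaller counts. Of 38 replication-dependent histone genes tested 7 were higher, close to the 18.7% of all genes, and 0 lower, led by Hist2h2ac at 1.35, 0.664 and 1.04 FPKM against 1.87 and 2.84. Of 39 cell cycle genes 3 were higher (Mcm2, Cdk2 and Mcm7, 0.30 to 0.36), of 22 glycolysis genes 5 were higher, and of 23 cholesterol synthesis genes 2 were higher and 2 lower, with Idi1 at 8.85, 7.85 and 8.63 against 5.58 and 3.68 (-0.76). Under quantile scaling 1 glycolysis gene was higher and 1 lower. Without Nudt21-set wild type 1 the histone, cell cycle and glycolysis lists gave 2, 0 and 0 higher calls, and without wild type 2 they gave 0, 0 and 1. Of 15 long noncoding RNAs 3 were higher and 1 lower, beside 18.7% of all genes called higher and 7.31% lower. Malat1 was lower, at 205, 205 and 195 against 98.5 and 127 (-0.84 ± 0.25, SE, limma adjusted p = 0.0352), while Neat1 (0.42), Snhg3 and Snhg8 were higher. The Malat1 call was lost in several settings, among them the correction for GC content and length (limma adjusted p = 0.107) and leaving out Nudt21-set wild type 1 (0.245).

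**Figure D4:**
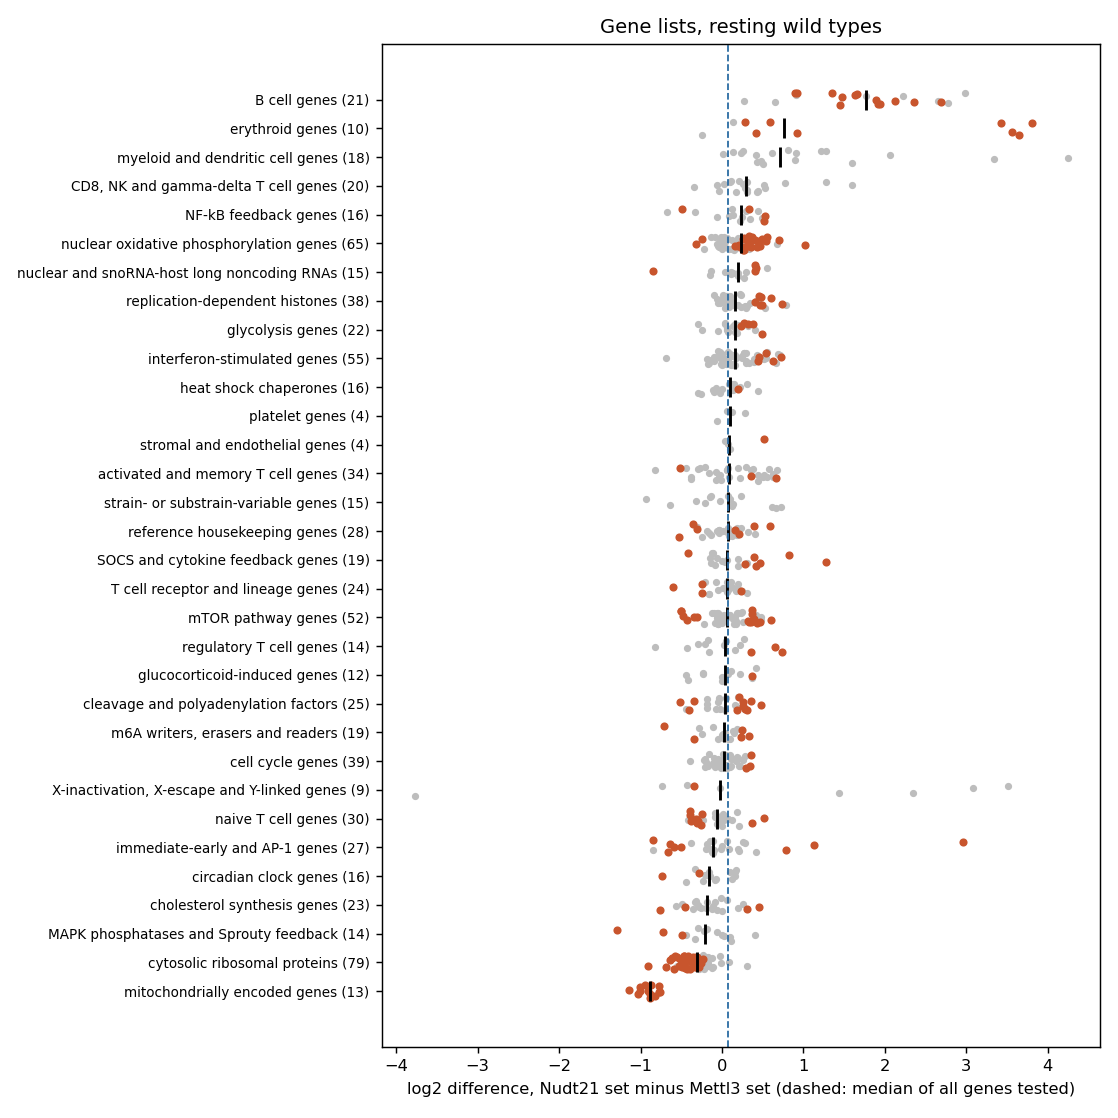
The log2 difference (Nudt21 set minus Mettl3 set, x axis) of every tested member of the 32 lists, ordered by the list median (black bar), with the number tested in brackets; orange points passed the adjusted p of 0.05. B cell genes lie at the top with a median of 1.77 and mitochondrially encoded genes at the bottom with -0.89, while the dashed line marks the median of all genes, 0.08.

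The called genes differed in composition. Genes higher in the Nudt21 set had a median exon length of 3215 bases and a median GC content of 53.9%, and genes lower there 6248 bases and 42.4%, beside 4024 bases and 49.6% for all genes with an annotation. In the 2500 genes poorest in GC, 2.48% were called higher and 22.7% lower. In the 2499 richest the shares were 34.8% and 1.12%. The median difference ran from -0.12 to 0.21 from the poorest to the richest of 5 such groups, and in the knockouts, with other libraries, from -0.32 to 0.17. With a correction for GC content and length, 1603 genes were higher and 401 lower. The part of composition in the single-gene results was not tested beyond that correction.

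A large share of genes was steady. In 3549 genes, 28.4% of those tested, the 95% interval of the difference between sets lay within 0.32 on the log2 scale in both directions, and in 74.6% it lay within 1.5-fold. Among genes with a mean of 5 FPKM or more the shares were 33% and 81.2%. The count within 0.32 depends on the 1 FPKM added before the log, which draws low genes together. With 0.5 or 0.1 FPKM added instead, 2802 and 2520 genes were held. Being called and being held are not exclusive: 126 called genes had intervals within 0.32.

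The steadiest genes, by the SD of log2(FPKM + 1) over the 5 libraries among genes with a mean of 20 FPKM or more, were chosen by this spread, which is therefore a description. Eif4a2, a translation initiation helicase, was at 388, 392 and 386 FPKM in the Mettl3 set and at 387 and 389 in the Nudt21 set. Tmem87a was at 29.5, 29.8 and 29.9 against 29.9 and 29.5, Ano6 (a phospholipid scramblase) at 22.1, 21.8 and 22.1 against 22.2 and 21.8, and Tubgcp4 (gamma-tubulin complex) at 20.9, 20.3 and 20.6 against 20.8 and 20.7. Ap2a2 (clathrin adaptor), Ppp2r5c (a phosphatase subunit), Tulp4, Btbd1, Thada and Chd8 (a chromatin remodeller) completed the 10. After correction for GC content and length Eif4a2 was higher by 0.22 (limma adjusted p = 0.0288).

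Of 28 common reference genes, 4 were higher and 3 lower, beside 18.7% of all genes called higher and 7.31% lower. Intervals lay within 0.32 in 10, beside 28.4% of all genes, among them Hprt, Polr2a, Ywhaz and Vcp. Sdha was both among these 10 and called higher. B2m was at 631, 809 and 715 FPKM against 576 and 543 (-0.35), Snrpd3 at 20.1, 19.5 and 18.4 against 30.4 and 28.7 (0.59) and Chmp2a at 69.2, 68.8 and 72.8 against 94.6 and 90.7 (0.39). Actb was at 866, 1006 and 938 against 876 and 831 (-0.13, limma adjusted p = 0.366) on the deposited scale and was higher by 0.23 after quantile scaling (limma adjusted p = 0.0276). Gapdh ranged from 13.2 to 51.4 over the 5 libraries, at 19.0, 13.2 and 48.9 against 51.4 and 16.5. It has many near-identical copies, so its value is uncertain.

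Within a set the libraries also differed. The median SD of log2(FPKM + 1) was 0.10 over the 3 Mettl3-set wild types and 0.05 over the 2 of the Nudt21 set. As the SDs rest on 3 and 2 libraries, these medians and the counts that follow are not like for like. An SD above 0.5 was seen in 159 genes within the Mettl3 set and in 118 within the Nudt21 set. In 88 of those 159 genes wild type 3 was the library farthest from the median of its set, beside 36 for wild type 1 and 35 for wild type 2.

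Genes of the sex chromosomes led this variation. Xist, the RNA that silences an X chromosome in females, was at 52.2 and 46.7 FPKM in Mettl3-set wild types 1 and 2 and at 0.00281 in wild type 3, and at 0.000811 and 0.00133 in the Nudt21 set. The Y-linked Ddx3y was listed at 0 in the first pair and stood at 36.3 in wild type 3 and at 28.6 and 26.0 in the Nudt21 set. Eif2s3y was likewise at 0, 0 and 47.7 against 40.4 and 41.3. So 2 libraries had the female pattern and 3 the male pattern, and the Nudt21 set held the male pattern only. Ddx3x, which escapes X inactivation, was lower in the Nudt21 set, at 106, 107 and 107 against 81.2 and 85.2 (-0.35), and in it wild type 3 was as high as wild types 1 and 2. The share of the X-linked genes called, 28.5% (49 higher, 54 lower), stood beside 26% of all genes.

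Nnt, the mitochondrial transhydrogenase, is split over 2 gene identifiers in the table that lie over each other on chromosome 13. The C57BL/6J substrain is known to carry a deletion within this gene. ENSMUSG00000025453 was at 12.5 and 12.4 FPKM in Mettl3-set wild types 1 and 2, at 2.0 in wild type 3, and at 12.9 and 12.1 in the Nudt21 set. ENSMUSG00000116207 was listed at 0 in all of these except wild type 3, where it was at 5.89. Both Mettl3-/- libraries showed the pattern of wild type 3, with 2.35 and 3.45 for the first identifier and 3.74 and 5.07 for the second, and both Nudt21-/- libraries the other pattern. Rab4a, an endosomal GTPase on chromosome 8 named after its values were seen, fell in with it: 11.7 and 12.5 FPKM in wild types 1 and 2, 1.99 in wild type 3, 12.7 and 11.5 in the Nudt21 set, and 1.62 and 2.21 in Mettl3-/- cells.

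**Figure D5:**
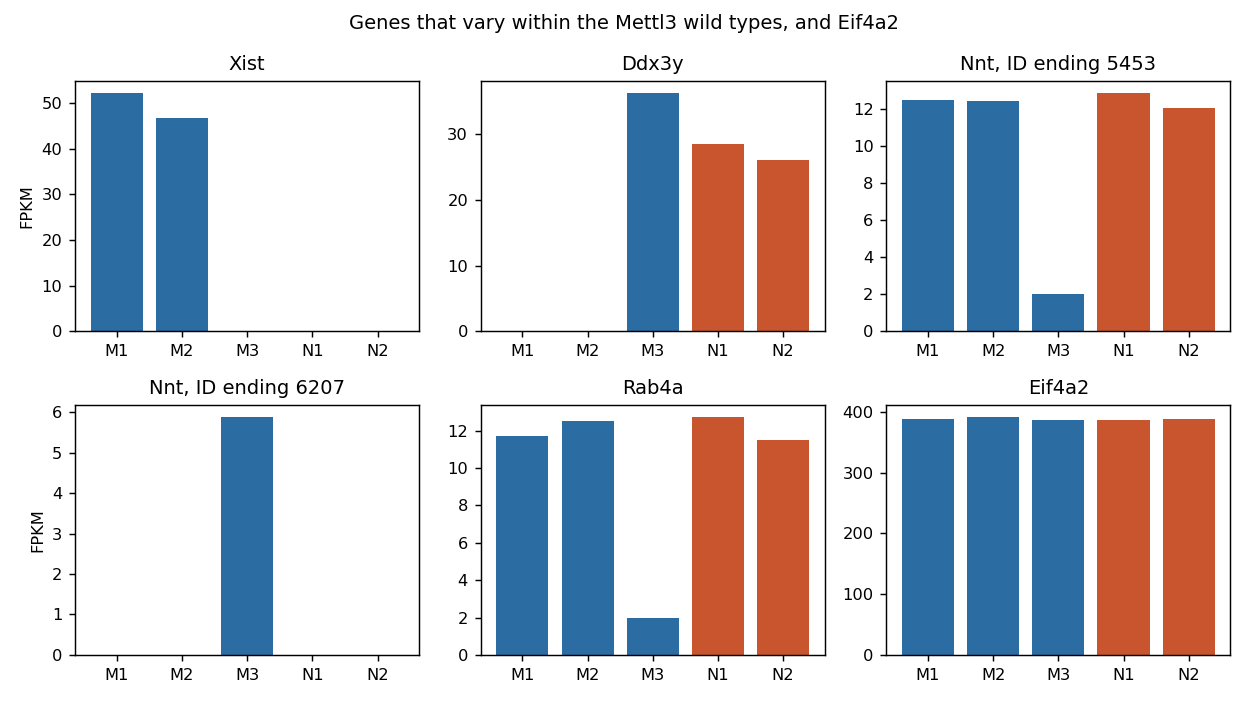
FPKM (y axis from 0) in Mettl3-set wild types 1 to 3 (M1 to M3, blue) and Nudt21-set wild types 1 and 2 (N1 and N2, orange) of Xist, Ddx3y, both Nnt identifiers, Rab4a and the steady gene Eif4a2. M3 differs from M1 and M2 in the first 5 genes, while Eif4a2 is between 386 and 392 throughout.

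Other genes of large spread followed neither set nor sex pattern. Exosc6 was at 9.49, 0.0552 and 7.59 FPKM in the Mettl3 set and at 0.0128 and 5.84 in the Nudt21 set, so that each set held a library close to 0. The inducible heat shock gene Hspa1b was at 8.88, 1.29 and 3.05 against 9.74 and 1.90, and its partner Hsph1 at 61.6, 18.9 and 39.6 against 57.0 and 31.0. Wild type 1 was the highest of its set for both genes in both sets. S100a8 and S100a9, which did differ by set without overlap, were also among the 5 most variable genes within the Nudt21 set. Ccdc142os was at 5.74 and 14.8 in that set.

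The comparison could be set beside that of the knockouts, whose differences are taken between other libraries and join the effect of set to that of genotype. Both tests take the variance of each gene from the same fit over all groups, so the calls that they share are not independent. Between Nudt21-/- and Mettl3-/- cells 2741 genes (21.9%) were higher and 3466 (27.7%) lower, 49.6% of those tested. Of the 2337 genes higher in the Nudt21-set wild types, 1241 (53.1%) were higher in Nudt21-/- cells and 223 (9.54%) lower. The 1241 are 45.3% of the genes higher between knockouts. Of the 914 genes lower between wild types, 642 (70.2%) were lower between knockouts, which is 18.5% of the genes lower there, and 22 (2.41%) were higher.

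For single members the values ran as follows. Fosb was at 5.96 and 26.3 FPKM in Mettl3-/- and at 49.3 and 51.8 in Nudt21-/- cells, a log2 difference of 1.90. Socs3 was at 167 and 147 against 298 and 305, a difference of 0.94, with every knockout above the wild types of its set. Hbb-bs was at 0.720 and 66.1 against 145 and 126, so that the Mettl3-/- samples themselves spanned most of the range. Nr4a1 was at 87.3 and 80.9 against 135 and 146, higher by 0.73, where it was lower by a difference of -0.67 between wild types. The change in the difference passed for Nr4a1 (limma adjusted p = 0.00265). Between these comparisons 25.3% of all genes passed the test of a changed difference.

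The called genes were spread over the genome. The share called ran from 18.4% on chromosome 12 to 32.3% on chromosome 17 among the autosomes. Within 10 Mb of Mettl3, on chromosome 14, 78 of 323 genes (24.1%) were called, and within 10 Mb of Nudt21, on chromosome 8, 33 of 104 (31.7%), beside 26% of all genes. Within 5 Mb of Nudt21 it was 9 of 42 (21.4%).

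Over the 9 libraries at 0 h, among 8388 genes with a mean of 5 FPKM or more, the genes most like Fosb by Pearson's r were Pmf1 (0.980), Hdac6 (0.962) and Atp6ap1 (0.962). Those most like Socs3 were Fbxo34 (0.985), Susd3 (0.980) and Rnf113a2 (0.978). Those most like Hbb-bs were Hba-a1 (0.999), Hbb-bt (0.999) and Hba-a2 (0.998), chains of the same haemoglobin. These are descriptions over libraries that share set and genotype. Pmf1 was at 20.5, 19.8 and 18.3 FPKM in the Mettl3 set and at 26.4 and 26.3 in the Nudt21 set, a far smaller step than that of Fosb.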

How the data were processed

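Naive CD4+ T cells of 12 samples in 5 groups were analysed from the table of FPKM values that the authors deposited. Per the submitters' processing notes, the tool Bowtie and the build mm10 are named. Per the labels' protocols, RNA was extracted with Trizol, and libraries were made with the NEBNext Ultra kit and sequenced as paired ends. The counting tool, annotation and strand setting are not given in the sources used here.

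Of 32285 genes, 12511 had 1 FPKM or more in at least 2 libraries and were tested with limma 3.58.1 (R 4.3.3) on log2(FPKM + 1), with a trended variance, 5 group means and 7 residual degrees of freedom. P-values were adjusted by Benjamini-Hochberg over all genes tested, with a threshold of 0.05. A fold change on this scale understates the change of low genes. The identifiers were matched to GENCODE annotation of mm10 (32235 of 32285) for lengths and positions. Promoters came from RefSeq (GRCm38.p6). The fit was tested on simulated data. Within the Mettl3 set, wild types of the same number at 0 h and 48 h deviated together from their group means (r = 0.261, 0.228 and 0.319), so those numbers pair samples, a reading from the data and the shared numbers in the labels.

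Genes were named by rule: the 15 largest called differences in each direction with non-overlapping sets and a mean of 5 FPKM or more in the higher set, up to 4 called members of each of 32 lists (the 2 of smallest p where none passed), a fixed list, the 10 smallest and 10 largest spreads, the 5 largest spreads within each set, and the 3 genes most like each marker. A further 41 genes were named after their values were seen. The members and lists were chosen with earlier results of these data known.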

Additional observations from a re-analysis of the deposited data

Results flagged for a closer look

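The log2 difference between sets itself differed between wild types and knockouts in 9 of the genes of largest difference and fixed genes. The test was a limma interaction test at an adjusted p under 0.05, which 25.3% of all genes tested passed. For Gadd45g the wild type difference exceeded that of the knockouts by 0.98 (1.2 against 0.27), and for Arhgef10 by 0.97 (1.16 against 0.19). Rgs1 was lower in the Nudt21 set in both comparisons, less so between wild types, by 1.33 (-1.29 against -2.62), and Igip likewise by 0.81 (-1.19 against -2.0). The value for Cd4 was -0.47 (0.11 against 0.58), for Cd3e -0.46 (-0.16 against 0.31) and for Actb -0.49 (-0.13 against 0.36). Mettl3 (-1.72) and Nudt21 (1.15) are the genes deleted in the knockouts.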

How the results depend on the processing

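The counts between wild types were recomputed under 25 alternatives and 2 added after seeing the data (both Mettl3-/- libraries left out, which gave 3076 higher and 1173 lower genes, and the pairing of the Mettl3-set wild types at 0 h and 48 h as a block, which gave 2333 and 905 and changed no call of a named gene). Leaving out each library in turn, higher calls ranged from 529 to 3075, lower calls from 114 to 1174 and genes held within 0.32 from 1673 to 4356. The lowest numbers of calls came without Nudt21-set wild type 1 (529 and 114), and the fewest genes held without wild type 2. Knockout calls ranged from 4159 to 6720 and changed differences from 1745 (without Nudt21-/- sample 2) to 4404. Median-ratio scaling gave 1276 higher and 1401 lower, and quantile scaling 1030 higher. The 9 libraries at 0 h gave 548 lower. Library weights gave 1386 lower, 3950 knockout calls and 2035 changed differences. The correction for GC content and length gave 401 lower. Without a filter on low values 16437 genes were held, since genes near 0 enter.

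Across the sets, replicate numbers did not pair the resting wild types: those of the same number had deviations that correlated at 0.0066 and 0.072. The replicate block over all libraries gave 2059 higher, 739 lower, and 3139 held genes, with 5403 knockout calls and 2754 changed differences; with the correction for GC content and length it gave 1423 and 330. Of the named genes, Actb (0.23 after quantile scaling) and Eif4a2 (0.22 after correction for GC content and length) changed direction. Many calls did not hold throughout, and 32 of the 127 named genes called kept the call in every alternative. The most calls were lost when either Nudt21-set wild type was left out, which leaves a lone library in that group. Of 127 named genes called, 21 lost the call with median-ratio scaling and 25 with quantile scaling. The correction for GC content and length lost 36, and the 9 libraries at 0 h lost 40. Pim2, Psmb9, Hspa5, Cd2 and Neat1 were among those lost with median-ratio scaling, and B2m was lost with quantile scaling. The causes were not tested. Depth is unknown, and genes near 1 FPKM are limited by it.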
